A study of Homo sapiens with 6 samples.

Results

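10 genes of cellular calcium transport were followed in HEK293T, an established cell line derived from embryonic kidney in which the SV40 T-antigen is present. They were taken by symbol from the deposited count table, and all 10 were found among its 58051 genes. ATP2A2, ATP2A3, ATP2B1, ATP2B4 and ATP2C1 encode calcium pumps. ITPR1, ITPR2 and ITPR3 encode calcium release channels, and STIM1 and ORAI1 the sensor and the pore of store-operated calcium entry. One group of cells was transfected with the empty vector pcDNA3.1- and the other with pcDNA3.1-ppk1, from which the bacterial kinase PPK1, a maker of polyphosphate, is expressed. Transfection was transient, and both groups were harvested after 48 hours. There were 3 libraries for each vector, and the letters B, C and D in their labels mark matched pairs of biological replicates. All 6 share the cell line and the stated range of passages; the share of cells that took up the plasmid is not given in the sources used here. Each library measures RNA of a whole culture, in which fewer cells expressing a gene and less RNA per cell cannot be told apart. The ppk1 transcript itself was not analysed here.

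Cytosolic calcium is kept far below the level in the endoplasmic reticulum and outside the cell. Pumps of the P-type ATPase family do this work: SERCA pumps fill the endoplasmic reticulum, plasma membrane pumps export calcium, and the secretory pathway pump fills the Golgi. Receptor signals that activate phospholipase C produce inositol trisphosphate (IP3), which opens IP3 receptors and releases the stored calcium. When the store runs low, STIM1 in its membrane opens ORAI1 in the plasma membrane. Polyphosphate, the product of the kinase, is a chain of negatively charged phosphates that binds calcium, and the comparison asks whether transcripts of calcium transport differ when it is made.

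None of the 10 genes passed the test. The groups were compared over 19574 genes with edgeR (quasi-likelihood, replicate letter as a block), and a gene passed below an adjusted p of 0.05. Over all genes tested, 9.08% passed, 4.04% higher and 5.04% lower with ppk1. With upper-quartile scaling, 2.16% were higher and 4.77% lower, and again 0 of the 10 genes passed. At an unadjusted p below 0.05 there were 2 of the 10, ITPR1 and ATP2B4, both lower with ppk1, where 11.6% of all genes were lower at that level (23.8% in either direction, 12.2% higher). DESeq2 also called 0 of the 10, against 4.77% of all genes, with 2 at an unadjusted p below 0.05, against 17.6%. The differences were small and mostly downward. The log2 fold changes (ppk1 over empty vector) ran from -0.23 for ITPR1 to 0.03 for ATP2A2, and their median was -0.09, against 0.01 for all genes tested. The value was below 0 for 9 of the 10, and for 46.9% of all genes. Among the 10 genes, 5 were lower in all 3 pairs and 0 higher in all 3, against 21.1% and 22.6% of all genes. Of these 5, ATP2B1 was nearly level in pair B (log2 difference -0.00015) and ATP2A3 in pair D (-0.0060). The 95% intervals of the 10 changes, which cover the error of the fit for each gene singly, lay between -0.40 and 0.18. In percent, the lowest bound was -24.0% and the highest 13.2%, so a change of 2-fold lay outside each of them. The error behind these intervals rests mostly on variance pooled over genes (47.5 prior degrees of freedom). Only 2 degrees of freedom come from the libraries of the gene itself, so the intervals are not its own replicate spread.

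The libraries held between 40851783 and 67122986 counts, and in all 3 pairs more were from the ppk1 library. The lowest count of any of the 10 genes was 321, for ATP2A3, and the highest 24681, for ATP2A2. Of the markers chosen for the HEK293 line, all 7 (PAX2, LHX1, NEFL, NEFM, VIM, KRT8 and KRT18) were present, from 113 counts upward. Between the groups, NEFL, which encodes a neurofilament protein, fell by 0.29 on the log2 scale and KRT18, a keratin gene, rose by 0.28 (adjusted p 0.0079 and 0.011). Exons of KRT8 on the opposite strand cover 16.3% of the exon bases of KRT18. Of the KRT18 sequence, 14.35% recurs elsewhere in the annotated transcripts, so its count is uncertain. Of 5 markers of other cell types, PTPRC, PECAM1 and COL1A2 had at most 9 counts in any library, and COL1A1 had between 628 and 1284. ALB, the albumin gene, had 22 to 34 counts with the empty vector and 9 to 15 with ppk1 (log2 fold change -1.37, adjusted p 0.0026). Their part in the results that follow was not tested.

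**Figure D1:**
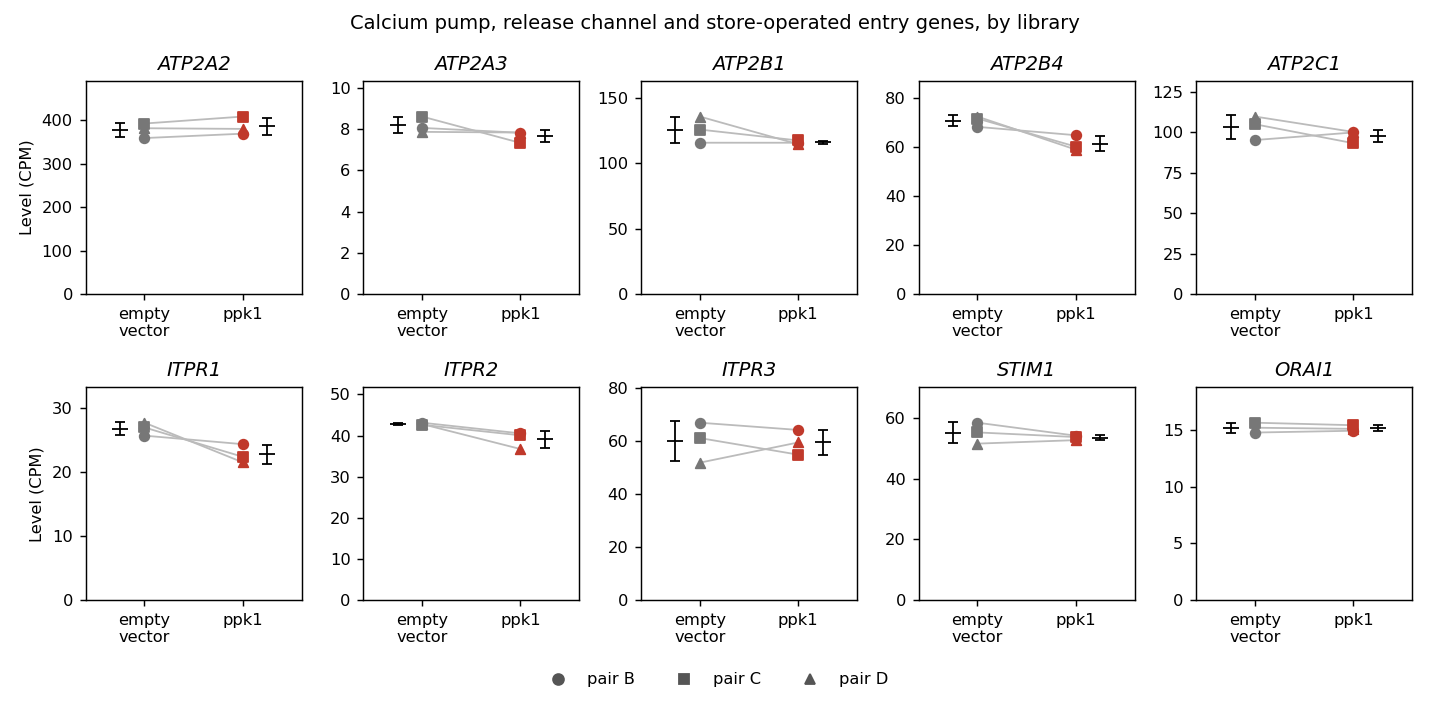
Level of each of the 10 genes in CPM (counts per 1000000 of the scaled library total, y axis from 0) in the empty vector (grey) and ppk1 (red) libraries; grey lines join the libraries of a pair, and bars beside the points give the mean and SD of 3 libraries. ITPR1, ITPR2, ATP2B4 and ATP2A3 have ppk1 points that all lie below the empty vector points, while ATP2A2 and ORAI1 lie level.

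Neither SERCA pump gene passed. ATP2A2 (ENSG00000174437, chromosome 12) encodes SERCA2, the pump of the endoplasmic reticulum found in most tissues. In CPM (counts per 1000000 of the scaled library total) its level was 359, 393 and 382 in the empty vector libraries B, C and D, and 369, 409 and 380.5 in the ppk1 libraries. The groups overlapped, and pair D was nearly level while B and C were slightly higher with ppk1. The log2 fold change was 0.03 (SE 0.07, 95% interval -0.12 to 0.18, adjusted p 0.84).

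ATP2A3 (ENSG00000074370, chromosome 17) encodes SERCA3, which is known mainly from blood and epithelial cells. It was measured at 8.05, 8.60 and 7.86 CPM with the empty vector and at 7.81, 7.32 and 7.83 CPM with ppk1. All ppk1 libraries were below all empty vector libraries, but by very little in the nearest libraries, and pair C differed most. Its log2 fold change was -0.09 (SE 0.10, 95% interval -0.30 to 0.11, adjusted p 0.63).

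The muscle SERCA gene ATP2A1, a paralog outside the 10, was low at 5.21 ± 0.51 and 5.28 ± 0.15 CPM (mean ± SD, n = 3 libraries per group). To compare the paralogs, levels were divided by the length of the principal transcript of each gene. On that scale ATP2A2 made up 96.7 ± 0.24% of the SERCA family over the 6 libraries (mean ± SD), ATP2A3 1.76% and ATP2A1 1.54%. The SERCA2 share was 96.6% with the empty vector and 96.8% with ppk1, a difference smaller than the SD of either group (0.27 and 0.23 percentage points).

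The promoter of ATP2A2 is a textbook target of the endoplasmic reticulum stress response, which also drives the chaperone genes HSPA5 (the BiP chaperone) and CALR (calreticulin, the main calcium buffer of the store). The known element is CCAAT, then 9 bases of any kind, then CCACG. It contains CCAAT, which alone is a box common to many promoters. It was searched on both strands of the 250 bases before each RefSeq gene start (GRCh38.p14). The strict form was found in 0.074% of 35116 windows, and the form with any base at the last position in 0.282%. RefSeq windows were at hand for 7 of the 10 genes, not for ATP2A3, ITPR2 and ORAI1. The strict form was in none of these 7, and the free form in 1, ATP2A2, in 1 of its 2 windows. Of the 12 genes for lumenal calcium-binding proteins with a window, 4 (CALR, CANX, HSPA5 and HSP90B1) held the strict form. The 3 windows shown here set the pump beside CALR and HSPA5, because CALR and HSPA5 hold the strict form and ATP2A2 only the form with any last base. Capitals mark the matches, which begin 63 bases before the start in ATP2A2, 66 in HSPA5 and 225 in CALR, where the match lies on the opposite strand and reads as its reverse complement.
ATP2A2, chr12:110280997-110281246, plus strand: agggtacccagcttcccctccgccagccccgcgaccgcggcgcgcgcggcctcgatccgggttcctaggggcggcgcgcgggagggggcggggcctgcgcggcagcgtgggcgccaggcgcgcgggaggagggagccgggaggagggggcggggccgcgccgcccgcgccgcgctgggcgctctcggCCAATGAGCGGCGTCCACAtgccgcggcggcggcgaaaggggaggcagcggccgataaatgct
HSPA5, chr9:125241344-125241593, minus strand: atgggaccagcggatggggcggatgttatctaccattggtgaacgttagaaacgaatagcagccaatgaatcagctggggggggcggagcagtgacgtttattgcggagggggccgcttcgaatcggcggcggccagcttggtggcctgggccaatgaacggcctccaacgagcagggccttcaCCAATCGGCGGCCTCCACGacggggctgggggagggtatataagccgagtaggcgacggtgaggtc
CALR, chr19:12938359-12938608, plus strand: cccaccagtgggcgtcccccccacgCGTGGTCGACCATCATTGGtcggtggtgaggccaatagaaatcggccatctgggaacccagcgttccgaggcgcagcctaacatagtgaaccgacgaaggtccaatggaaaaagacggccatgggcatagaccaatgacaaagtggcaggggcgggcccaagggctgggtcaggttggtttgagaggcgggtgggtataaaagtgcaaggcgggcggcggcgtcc

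Like ATP2A2, these chaperone genes did not pass the test. HSPA5 measured 840.1, 706 and 788 CPM with the empty vector and 849, 677 and 769 CPM with ppk1, highest in B and lowest in C in both groups (log2 fold change -0.03, SE 0.08, adjusted p 0.87). CALR measured 459, 482 and 519 CPM with the empty vector and 529.75, 589 and 566 CPM with ppk1. Here the groups did not overlap, and the log2 fold change was 0.21 (SE 0.075, 95% interval 0.06 to 0.36, adjusted p 0.074). Without pair D, CALR passed (0.23, adjusted p 0.040), and in that fit 9.06% of all genes were called. This was the 1 of the 10 alternative settings in which CALR passed. Over them its adjusted p ran from 0.040 to 0.70, the highest being the one without pair C, where 2.06% of all genes were called. HSP90B1 and CANX, which carry the strict form too, had log2 fold changes of 0.06 and -0.03. A match to the element is a description of these letters, not of binding.

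Of the plasma membrane pumps, ATP2B4 (ENSG00000058668, chromosome 1) stood nearest to a call. It encodes PMCA4, which exports calcium and is held in check at rest until calmodulin binds it. Its level was 68.4, 71.8 and 72.6 CPM with the empty vector and 64.96, 60.3 and 59.1 CPM with ppk1, so that all ppk1 libraries were lower. Its log2 fold change was -0.21 (SE 0.08, 95% interval -0.36 to -0.05), a change of -13.3%, with an adjusted p of 0.077. The difference was small in pair B (-0.07) and larger in C (-0.25) and D (-0.30). Without pair B the adjusted p was 0.025, and in that fit 12.5% of all genes were called, 6.03% lower. Over the 10 alternative settings its adjusted p ran from 0.025 to 0.67, the highest being the one without pair C. There the log2 fold change was -0.18, and 2.06% of all genes were called.

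ATP2B1 (ENSG00000070961, chromosome 12) encodes PMCA1, the widely expressed pump of this family. It was measured at 115.9, 126 and 136 CPM with the empty vector and at 115.9, 118 and 115 CPM with ppk1. The ppk1 libraries lay close together at the level of the lowest empty vector library. This gave a log2 fold change of -0.11 (SE 0.07, 95% interval -0.26 to 0.04, adjusted p 0.37). ATP2B3 had only 0.77 to 1.34 CPM, with a log2 fold change of -0.25 (SE 0.20, adjusted p 0.49), and ATP2B2 at most 0.14 CPM, too low to be tested. Per length, ATP2B1 made up 69.3 ± 1.31% of the family (mean ± SD, n = 6 libraries) and ATP2B4 29.7 ± 1.14%. Within the pairs the ATP2B4 share differed by -1.04, -2.10 and -0.80 percentage points in B, C and D (ppk1 minus empty vector). The SD of each group was 0.99 percentage points.

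ATP2C1 (ENSG00000017260, chromosome 3) encodes SPCA1, which loads the Golgi with calcium and manganese. It was measured at 95.3, 105 and 109.8 CPM with the empty vector and at 99.99, 93.3 and 100.3 CPM with ppk1. Pair B was higher with ppk1 and the other pairs lower, and the groups overlapped (log2 fold change -0.08, SE 0.08, 95% interval -0.23 to 0.07, adjusted p 0.58). Its paralog ATP2C2 had a mean of 1.5 counts per library and was not tested.

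**Figure D2:**
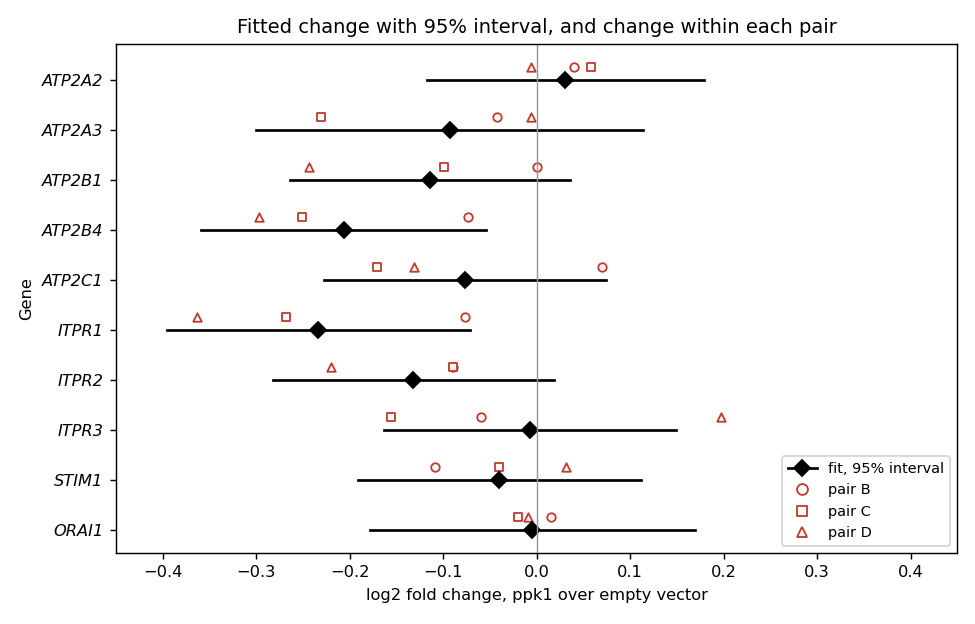
Fitted log2 fold change (black diamond) with its 95% interval (line) for each gene, and the log2 difference within pairs B, C and D (open symbols above each line). The intervals of ITPR1 and ATP2B4 lie below 0 before adjustment for the number of genes, and in both genes pair B shows the smallest difference.

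Of the 10 genes, the one with the largest difference was an IP3 receptor gene. ITPR1 (ENSG00000150995, chromosome 3) encodes the type 1 receptor, the main form in neurons. Its level was 25.7, 27.0 and 27.8 CPM with the empty vector and 24.4, 22.4 and 21.6 CPM with ppk1. All ppk1 libraries were lower, and again pair B differed least (-0.08, against -0.27 in C and -0.36 in D). The log2 fold change was -0.23 (SE 0.08, 95% interval -0.40 to -0.07), a change of -14.9%, with an adjusted p of 0.057. Without pair B it was -0.32 with an adjusted p of 0.014, and in that fit 12.5% of all genes were called, 6.03% lower. Across the 10 alternative settings the adjusted p ran from 0.014 to 0.59, again highest without pair C. There the log2 fold change was -0.22, and 2.06% of all genes were called.

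ITPR2 (ENSG00000123104, chromosome 12), the type 2 receptor gene, was very even with the empty vector at 43.1, 42.6 and 42.8 CPM. With ppk1 it measured 40.5, 40.1 and 36.7 CPM, and the groups did not overlap. Its log2 fold change was -0.13 (SE 0.075, 95% interval -0.28 to 0.02, adjusted p 0.28). Pair D differed most, at -0.22 on the log2 scale against -0.09 in B and C.

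ITPR3 (ENSG00000096433, chromosome 6), the type 3 receptor gene, was the most abundant of the family. It measured 66.8, 61.0 and 51.75 CPM with the empty vector and 64.1, 54.8 and 59.3 CPM with ppk1. The empty vector libraries spread widely, and pair D was higher with ppk1 by 0.20 on the log2 scale while B and C were lower. The fit gave -0.01 as its log2 fold change (SE 0.08, 95% interval -0.16 to 0.15, adjusted p 0.97). Exons of UQCC2 cover 10.4% of the exon bases of ITPR3 on the opposite strand, and whether the authors' counting used the strand is not given. Among the other 9 genes, the exon bases shared with any 1 overlapping gene came to at most 2.2% (ASTE1, with ATP2C1), and at most 2.13% of the sequence of any of the 10 (for ORAI1) recurred elsewhere in the annotated transcripts.

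Per length, ITPR3 made up 48.1 ± 3.56% of the IP3 receptor family with the empty vector and 51.1 ± 1.94% with ppk1 (mean ± SD, n = 3 libraries per group). ITPR2 followed with 29.9 ± 1.56% and 29.1 ± 1.55%, and ITPR1 with 21.9 ± 2.01% and 19.8 ± 0.47%. Within the pairs the ITPR1 share differed by -0.07 percentage points in B, -1.59 in C and -4.72 in D. In pair D the composition moved most, with 8.26 percentage points more ITPR3. The empty vector library D had the lowest ITPR3 level of all 6. The summed level of the family per length differed by -0.07, -0.16 and -0.05 on the log2 scale in pairs B, C and D.

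**Figure D3:**
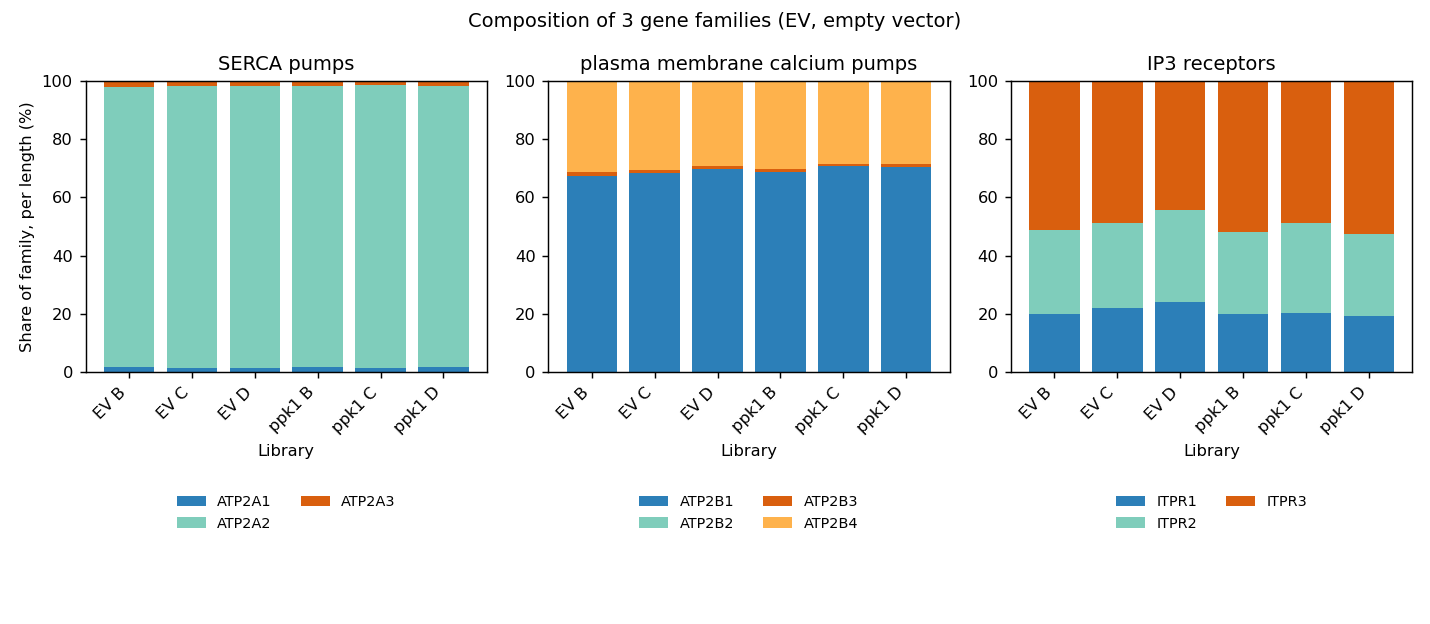
Share of each paralog (percent, y axis) in the SERCA, plasma membrane pump and IP3 receptor families in each library, from levels per length of the principal transcript; EV is the empty vector. ATP2A2 takes nearly the whole SERCA bar in every library, and the IP3 receptor bars differ most between the libraries of pair D.

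Ryanodine receptors, the other release channels of the endoplasmic reticulum, were much lower. RYR2 reached 3.57 to 4.03 CPM and RYR1 0.65 to 1.33 CPM, with log2 fold changes of -0.07 (SE 0.13, adjusted p 0.80) and -0.30 (SE 0.22, adjusted p 0.44). RYR3, at most 0.24 CPM, was not tested.

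Neither gene of store-operated entry passed. STIM1 (ENSG00000167323, chromosome 11) was measured at 58.35, 55.2 and 51.5 CPM with the empty vector and at 54.1, 53.6 and 52.6 CPM with ppk1. The ppk1 libraries lay inside the range of the empty vector libraries (log2 fold change -0.04, SE 0.08, 95% interval -0.19 to 0.11, adjusted p 0.80). ORAI1 (ENSG00000276045, chromosome 12) was measured at 14.8, 15.6 and 15.2 CPM with the empty vector and at 14.9, 15.4 and 15.1 CPM with ppk1. The groups overlapped with a small spread (SD 0.43 and 0.25 CPM), and the log2 fold change was -0.00 (SE 0.09, 95% interval -0.18 to 0.17, adjusted p 0.98).

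Their paralogs were called in neither direction. STIM2, which senses smaller losses from the store, measured 34.2 ± 1.71 CPM with the empty vector and 31.8 ± 0.98 CPM with ppk1 (log2 fold change -0.10, SE 0.08, adjusted p 0.43). ORAI2 measured 31.9 ± 3.71 and 35.2 ± 2.25 CPM (log2 fold change 0.14, SE 0.08, adjusted p 0.26), and ORAI3 3.10 ± 0.42 and 2.54 ± 0.39 CPM (mean ± SD, n = 3). ORAI3 was lower with ppk1 in all 3 pairs, with a log2 fold change of -0.29 (SE 0.14, adjusted p 0.20). The annotation places 48.5% of its transcript sequence also in an overlapping transcript, so its count is uncertain.

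Compared per length over the 6 libraries, ATP2A2 was the most abundant of the 10 at 93.4 ± 4.25 CPM per kilobase (mean ± SD, n = 6). ATP2C1 (29.6), ATP2B1 (17.2), STIM1 (13.4) and ORAI1 (10.1 CPM per kilobase) followed. ATP2B4 (7.38) and ITPR3 (6.04) came next, and they were the one pair of neighbours in the order whose libraries overlapped. ITPR2 (3.59), ITPR1 (2.54) and ATP2A3 (1.69 CPM per kilobase) were lowest. The order depends on the length used. Per kilobase of all annotated exons, ATP2B1 (12.7) stood above ATP2C1 (11.8), ATP2B4 (6.81) above ORAI1 (6.70) and ATP2A3 (1.15) above ITPR1 (0.76 CPM per kilobase).

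Groups that did not overlap in CPM were found for 4 of the 10 genes (ATP2A3, ATP2B4, ITPR1 and ITPR2), all lower with ppk1. This was so for 12.6% of all genes tested in that direction and for 25.6% in either. ITPR1, which had the smallest adjusted p of the 10, was most like another of them across the 6 libraries. In a comparison with 12244 genes averaging 200 counts or more, the highest correlation of log2 CPM with ITPR1 was that of ATP2B4 (Pearson r = 0.998), followed by HMCN1 (0.994) and WDSUB1 (0.992). These are descriptions over the same 6 libraries, whose group difference is part of the correlation. HMCN1 fell by 0.42 on the log2 scale (adjusted p 0.0086), and WDSUB1 had a log2 fold change of -0.26 (adjusted p 0.06).

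The other genes of calcium handling were read from 9 lists by role, 103 genes in all, of which 94 were high enough to be tested. Of these, 3 rose, 3 fell and 88 did not pass, or 6.38% called against 9.08% of all genes. Their median log2 fold change was 0.03. Without the block 0 of the 94 were called, against 2.4% of all genes, and without pair C also 0, against 2.06%. At an unadjusted p below 0.05 there were 16 without the block, against 18.6% of all genes, and 4 without pair C, against 10.3%. With DESeq2, 2 were called, against 4.77% of all genes. Of the 10 alternative settings, PLCD3 passed in 8, SLC8A1 in 7, RCAN2 in 6, CAMK1 in 5, PLCD1 in 4 and MCUR1 in 3.

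Enzymes that make or remove IP3 held 2 of the 6 calls, in opposite directions. These were 14.3% of the 14 genes, against 9.08% of all genes. PLCD3, a phospholipase C of the delta class, rose from 43.4, 41.0 and 36.9 CPM in the empty vector libraries B, C and D to 47.9, 56.5 and 48.6 CPM with ppk1. Its log2 fold change was 0.33 (SE 0.08, adjusted p 0.0029, with 0.065 without the block and 0.36 without pair C). Without pair C the log2 fold change was 0.27, and in that fit 2.06% of all genes were called. PLCD1, of the same class, fell from 9.22, 9.03 and 7.37 CPM to 6.89, 6.30 and 7.23 CPM, with hardly any difference in pair D. Its log2 fold change was -0.33 (SE 0.11, adjusted p 0.041, and 0.14 without the block). This call was lost with upper-quartile scaling (0.066), a mean of at least 50 counts (0.059), DESeq2 (0.22) and without pair B (adjusted p 0.16). It was lost too without pair C (log2 fold change -0.23, adjusted p 0.65). The other 12 of the 14 genes, including PLCB1, PLCG1, the IP3 kinases ITPKA, ITPKB and ITPKC and the phosphatase INPP5A, did not pass, and the list's median was 0.00. Of these 12, PLCB4 stood nearest to a call (log2 fold change -0.21, SE 0.08, adjusted p 0.11).

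Among mitochondrial calcium transport genes, 1 of 12 passed (8.33%, against 9.08% of all genes). MCUR1, a regulator of the uniporter, rose from 50.2, 51.1 and 51.1 CPM to 55.6, 65.8 and 57.8 CPM (log2 fold change 0.23, SE 0.08, adjusted p 0.045, and 0.14 without the block). Its call was lost with RLE (0.053) or upper-quartile scaling (0.079), DESeq2 (0.095) and either other low-count filter (adjusted p 0.073 and 0.056). It was lost too without pair C (log2 fold change 0.16, adjusted p 0.74), where 2.06% of all genes were called. MCU, the pore of the uniporter, had a log2 fold change of -0.09 (SE 0.08, adjusted p 0.51). Of the genes that did not pass, MICU3 stood nearest to a call (log2 fold change -0.29, SE 0.10, adjusted p 0.0502). At an unadjusted p below 0.05 there were 5 of the 12, 4 higher and 1 lower, against 23.8% of all genes. The list's median was 0.07.

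Of the exchangers and endolysosomal or Golgi transporters, 1 of 7 passed (14.3%, against 9.08% of all genes). SLC8A1, the sodium-calcium exchanger NCX1, which exports calcium beside the plasma membrane pumps, fell from 15.7, 16.6 and 16.8 CPM to 13.5, 13.5 and 13.1 CPM. The libraries within each group were close and the groups stood apart. For SLC8A1 the log2 fold change was -0.29 (SE 0.09, 95% interval -0.47 to -0.12), and the adjusted p was 0.024, 0.076 without the block. Each pair differed in that direction, by -0.22 in B, -0.30 in C and -0.36 in D. The SLC8A1 call was also lost with DESeq2 (0.10) and without pair C (adjusted p 0.39). Without pair C its log2 fold change was -0.29, and in that fit 2.06% of all genes were called.

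Calmodulin, calcineurin, NFAT and calmodulin-dependent kinase genes gave 1 rise and 1 fall among 21 (9.52% called, against 9.08% of all genes). RCAN2, a calcineurin regulator, fell from 2.12, 2.26 and 2.64 CPM to 1.63, 1.44 and 1.58 CPM (log2 fold change -0.58, SE 0.16, adjusted p 0.017, and 0.065 without the block). Its call was also lost with DESeq2 (0.198), without pair C (0.202) and without pair D (adjusted p 0.073). Without pair C its log2 fold change was -0.55, and in that fit 2.06% of all genes were called. RCAN1, the family member known to be induced by calcineurin and NFAT, had a log2 fold change of 0.04 (SE 0.07, adjusted p 0.81). Of the genes that did not pass, CALM3, a calmodulin gene, stood nearest to a call (log2 fold change 0.22, SE 0.07, adjusted p 0.054). At an unadjusted p below 0.05 there were 5 of the 21, 4 higher and 1 lower, against 23.8% of all genes. CAMK1, a calmodulin-dependent kinase gene, rose from 49.5, 46.0 and 42.4 CPM to 52.7, 55.8 and 55.4 CPM (log2 fold change 0.25, SE 0.08, adjusted p 0.030, and 0.11 without the block). The CAMK1 call was also lost with upper-quartile scaling (0.072), DESeq2 (0.084), without pair C (0.49) and without pair D (adjusted p 0.21). Its log2 fold change without pair C was 0.24. Exons of OGG1 on the opposite strand cover 80.2% of the exon bases of CAMK1, so its value is uncertain if the strand was ignored.

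The remaining 5 lists had no call, where 9.08% of all genes were called. Of 11 tested lumenal calcium-binding proteins, CALR (above) and PDIA3, a disulfide isomerase (log2 fold change 0.13, SE 0.07, adjusted p 0.26), had the smallest p-values. Among 9 store-operated entry partners these were TRPC1, a cation channel gene (-0.23, SE 0.08, adjusted p 0.0506), and ORAI3. TRPC1 measured 36.4, 39.3 and 41.6 CPM with the empty vector and 34.6, 30.4 and 35.1 CPM with ppk1. It passed in 3 of the 10 alternative settings: with RLE scaling, without pair B and without pair D. In those fits 8.73%, 12.5% and 9.06% of all genes were called. The adjusted p of TRPC1 over the 10 settings ran from 0.011 to 0.76, the highest being the one without pair C. In that fit 2.06% of all genes were called. Among 13 other release channels and regulators they were PSEN2, a presenilin gene (0.18, SE 0.08, adjusted p 0.14), and BOK (0.37, SE 0.18, adjusted p 0.20). The 5 tested pump partners included VMP1 (-0.15, SE 0.08, adjusted p 0.23, and 0.044 without pair B) and BSG, a partner subunit of the plasma membrane pumps (0.10, SE 0.07, adjusted p 0.42), as log2 fold changes. VMP1 passed in 1 of the 10 alternative settings, the one without pair B, where 12.5% of all genes were called. Over the 10 settings its adjusted p ran from 0.044 to 0.75. PLN, the gene of the SERCA inhibitor phospholamban, had 0 counts in all 6 libraries, which allows up to 0.0447 to 0.0734 CPM depending on the library. Sarcolipin (SLN), another SERCA inhibitor, had 1 to 3 counts.

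**Figure D4:**
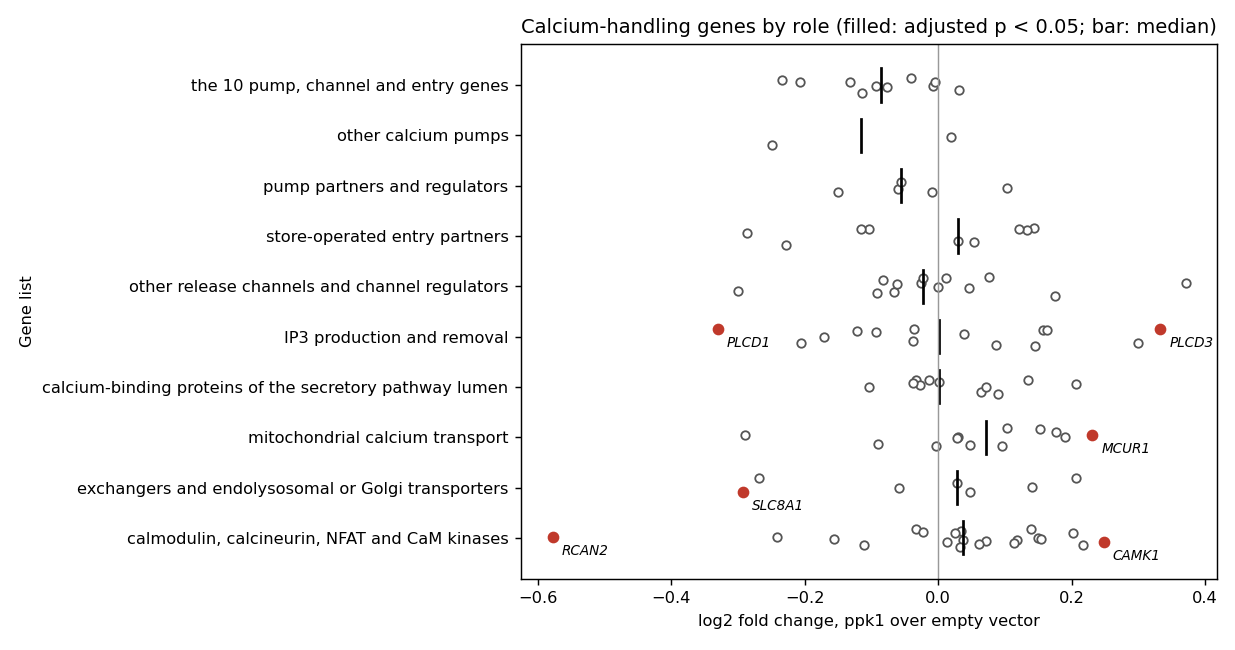
Log2 fold change of each tested calcium-handling gene (points) by list, with the median of the list (bar); filled points passed an adjusted p of 0.05. The 6 filled points lie in 4 of the lists, 3 on each side of 0, and no point of the 10 pump, channel and entry genes is filled.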

How the data were processed

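RNA was poly(A)-selected and sequenced with a directional kit, per the labels' protocols. The authors deposited 1 table of raw counts per gene, all whole numbers, with unequal library totals. The submitters' processing notes name bcl2fastq 2.20, Trimmomatic, STAR, HTSeq, edgeR, DESeq, Cufflinks and Cuffdiff, without roles. The genome build, annotation release and strand setting are not given in the sources used here. Of 58051 genes, 57447 (98.96%) matched GENCODE release 29 by identifier, which supplied chromosomes, lengths (the APPRIS principal transcript) and overlaps. Shared sequence was assessed in stretches of 50 bases.

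Counts were tested with edgeR 4.0.16 in R 4.3.3 (glmQLFit, glmQLFTest) after filterByExpr (minimum count 10) and TMM scaling, with Benjamini-Hochberg adjustment over all 19574 genes tested. The fit was tested on simulated data drawn with the same dispersion for all genes and no difference between replicate letters. That simulation could not test the block or differences in variance between genes. The replicate letter was a block because the design text states the matching. Deviations of same-letter libraries correlated at 0.11, 0.14 and 0.048 (B, C, D), and at 0.24, 0.40 and 0.25 over genes averaging 200 counts or more. Libraries of different letters gave -0.12 to -0.0051 over all genes tested, and -0.31 to -0.0625 over genes averaging 200 or more. Deviations were taken from the mean of each group, so these values depend on one another. CPM are counts per 1000000 of the TMM-scaled total. SE is the absolute log2 fold change over the square root of F, and 95% intervals use it with the fit's degrees of freedom. Log2 values within pairs used a prior count of 2.

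The 10 genes and the lists were chosen with earlier results of these data known. The text names all 10, their paralogs, up to 4 called genes of each list or, where none was called, the 2 with the smallest p, and the 3 genes most like ITPR1. HSPA5, HSP90B1, CANX, MCU, MICU3, RCAN1, CALM3 and PLCB4 were added after their values were seen. Also named, outside that selection, are PLCB1, PLCG1, ITPKA, ITPKB, ITPKC, INPP5A, PLN and SLN. Alternatives were RLE and upper-quartile scaling, other filters, robust dispersion, DESeq2 1.42.0, no block and leaving out each pair. Promoter sequences are from RefSeq.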

Additional observations from a re-analysis of the deposited data

How the results depend on the processing

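Of 100 values of the 10 genes under 10 alternative settings, 95 kept direction and side of the threshold and 2 became called, both without pair B: ITPR1 (-0.32) and ATP2B4 (-0.28). Leaving out a pair gave log2 fold changes from -0.32 to -0.19 for ITPR1, -0.28 to -0.18 for ATP2B4, -0.128 to 0.0679 for ITPR3 and -0.0230 to 0.00393 for ORAI1. The last 2 changed sign, ITPR3 without B (0.0185) and without C (0.0679), and ORAI1 without C (0.00393). ATP2A1 changed sign with upper-quartile scaling (-0.00260), without C (-0.0275) and without D (-0.0169), and was 0.0852 without B.

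Without the replicate block 470 genes were called in all, and with DESeq2 756, against 1777; leaving out a pair gave 406 to 2435. The members called ran from 0 to 2 over those fits. The 2 were called without pair B, where 12.5% of all genes were called, 6.03% lower. In the other fits 0 were called: without the block (2.4% of all genes), with DESeq2 (4.77%), without pair C (2.06%) and without pair D (9.06%). Of the other calcium-handling genes, 6 were called in the main fit, against 9.08% of all genes. With upper-quartile scaling 3 were called (6.92% of all genes), with no block 0 (2.4%) and with DESeq2 2 (4.77%). With a pair left out, 10 were called without B (12.5% of all genes), 0 without C (2.06%) and 7 without D (9.06%). The cause was not tested. The block changed no call among the 10 genes, and without it none of the 6 other calcium-handling genes was called.

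Family shares moved with the length used. Undivided counts gave 64.3% for ATP2B1 and 32.7% for ITPR2. The length of all annotated exons, chosen after seeing the data, gave 92.4% (ATP2A2), 64.7% (ATP2B1), 7.64% (ITPR1), 32.1% (ITPR2) and 60.2% (ITPR3). ITPR1 has 32454 annotated exon bases and 9767 in its principal transcript.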
